A study of Oryza sativa with 2 samples.

Results

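The genes described here are 5 DNA methyltransferase genes of rice (MET1a, MET1b, CMT3a, CMT2 and DRM2) and the DNA demethylase gene ROS1a. They were chosen by locus identifier, 6 of the 57446 genes in the deposited expression table, and all 6 were found there. Messenger RNA of young inflorescences (panicles under 2 cm) was sequenced in 1 library of XD1B, labelled wild type, and 1 library of lf2. By the series title, LATERAL FLORET 2 (LF2) encodes a chromatin remodeller of the SNF2 family with a role in spikelet axillary meristems, and lf2 is its mutant. No source used here gives the kind of lesion or the age of the plants. There are no replicates, so every difference is between 2 libraries, no p-value was computed, and intervals cover counting error only. Whole panicles were sampled, so fewer cells of a type and less RNA per cell cannot be told apart.

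Plant DNA carries methyl groups on cytosines in the CG, CHG and CHH contexts, where H is any base but G. MET1 enzymes copy CG methylation onto the new strand after DNA replication, CMT3 enzymes maintain CHG methylation on chromatin with a repressive histone mark, and CMT2 and DRM2 methylate CHH sites. DRM2 is guided by small RNAs in the RNA-directed pathway. ROS1-type DNA glycosylases cut methylated cytosines out, so that methylation reflects both kinds of enzyme. In rice, loss of MET1b is lethal in seedlings, loss of DRM2 disturbs vegetative and panicle growth, and a null ROS1a allele is not transmitted normally through the gametes.

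MET1a, MET1b and CMT3a, which act in maintenance, were all at least 2-fold lower in the lf2 library. DRM2 was lower by a smaller factor, and ROS1a lay close to the middle of all genes. CMT2 was near the limit of detection in both libraries. The unit is FPKM (fragments per kilobase of gene length, scaled to the library total). A gene was taken as measured at FPKM of at least 1 in either library, which 5 of the 6 genes reached, all but CMT2. The difference was log2((lf2 FPKM + 1)/(XD1B FPKM + 1)), and a gene counted as at least 2-fold lower or higher where this was at most -1 or at least 1. By this rule of size 3 of the 5 measured genes were lower and 0 higher, but the count lower was 1 with a pseudocount of 5 and 0 after either rescaling of lf2 described at the end. The same rule called 8.23% of all 22150 measured genes lower and 15.3% higher. Where the mean FPKM was at least 5, as for these 5 genes, it called 9.16% lower and 13.6% higher. The median log2 ratio was -0.31 over all measured genes and -1.09 over the 5.

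Library depth and tissue were read from the same table. The libraries held 29111345 fragments for XD1B and 27373727 for lf2, as recovered from the steps between FPKM values. All 7 panicle and floral meristem markers, among them OSH1 and MADS1, were present, at 20.5 to 225 FPKM in XD1B and 5.63 to 149 in lf2. All 7, with a median log2 ratio of -1.36, were lower in lf2, against 65.2% of all measured genes. DL, G1, MADS6 and MADS1 passed the 2-fold rule downward, as 8.23% of all measured genes did. These 4 tissue markers were thus lower along with the maintenance methyltransferase genes. OSH1 and MADS15 differed less, with ratios of 0.701 and 0.662, and MADS14 had a ratio of 0.980 (0.935 to 1.03) that includes equal levels. The 3 late anther markers (TDR, EAT1 and C6) stayed under FPKM 1 in both, with C6 listed at 0 in lf2. RCA, a leaf photosynthesis gene, stood at 7.80 and 2.63 FPKM. All 6 TIFY genes used as markers of jasmonate or wounding passed the 2-fold rule upward in lf2, against 15.3% of all measured genes. Their summed level was 86.5 FPKM in XD1B and 862 in lf2. The part of these marker lists in the differences between the libraries was not tested.

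**Figure D1:**
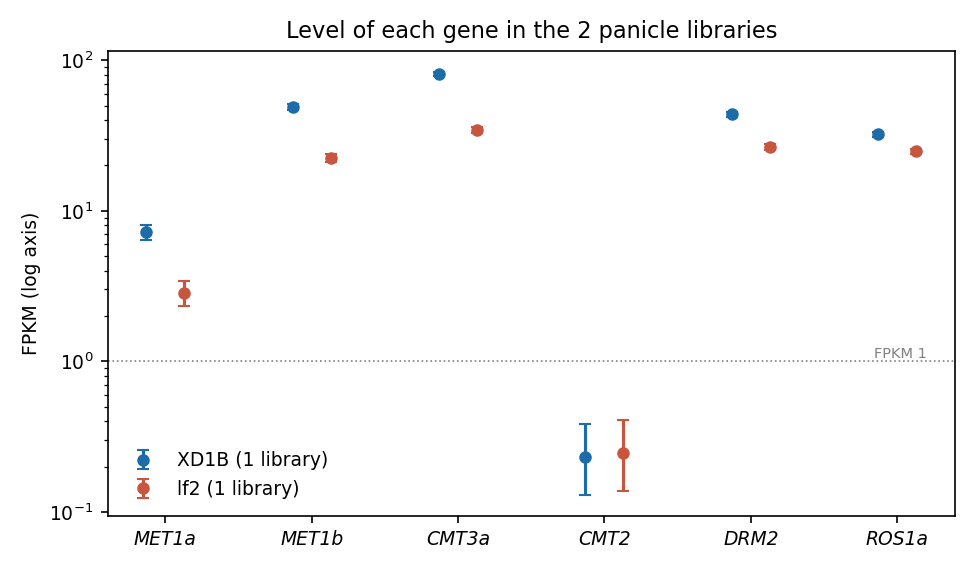
FPKM of each gene (log axis) in the XD1B library (blue) and the lf2 library (red). Bars are exact Poisson 95% intervals for counting error, and the dotted line marks FPKM 1. CMT3a is the highest of the 6 genes in both libraries, at 81.0 and 34.3, and CMT2 the lowest, at 0.233 and 0.248.

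The MET1 pair was unequal in level and alike in its difference. MET1b, on chromosome 7 (LOC_Os07g08500), stood at 49.0 FPKM in XD1B (47.0 to 51.0) and 22.4 in lf2 (21.0 to 23.9). Its ratio of lf2 to XD1B was 0.458, with an exact Clopper-Pearson 95% interval of 0.424 to 0.493, from at least 2289 and 985 fragments. MET1a, on chromosome 3 (LOC_Os03g58400), stood far lower, at 7.22 FPKM in XD1B (6.42 to 8.10) and 2.82 in lf2 (2.31 to 3.41). Its ratio was 0.391 (0.310 to 0.490), from at least 291 and 107 fragments. Neither pair of level intervals overlaps between the libraries, but nor does that of ROS1a, whose log2 ratio lay next to the median of all measured genes. The share of all measured genes with separate intervals was not computed. The level of MET1a was 0.147 of that of MET1b in XD1B and 0.126 in lf2. The change in that proportion was 0.854 (0.670 to 1.08). This interval includes 1, but it may be wider than the true one, since the fragment numbers are lower bounds.

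CMT3a, on chromosome 10 (LOC_Os10g01570), was the most abundant of the 6 transcripts. It stood at 81.0 FPKM in XD1B (78.4 to 83.6) and 34.3 in lf2 (32.6 to 36.1), a ratio of 0.424 (0.399 to 0.450) from at least 3773 and 1504 fragments. Its level exceeded that of 93.6% of measured genes in XD1B and 81.9% in lf2. Its log2 ratio of -1.21 was the lowest of the set, and 3.12% of measured genes had a lower one. The same share was 5.18% for MET1a (log2 ratio -1.10) and 5.50% for MET1b (-1.09). CMT3a and MET1b kept nearly the same proportion to each other, 1.65 in XD1B and 1.53 in lf2, a change of 0.926 (0.841 to 1.02) whose interval includes 1.

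CMT2, the other chromomethylase of the set (LOC_Os05g13790, chromosome 5), stood at 0.233 FPKM in XD1B (0.130 to 0.384) and 0.248 in lf2 (0.139 to 0.409). These values rest on at least 15 fragments in each library. The ratio of 1.06 has an interval of 0.484 to 2.33, which takes in a 2-fold difference either way. As the fragment numbers are lower bounds, the true interval may be narrower.

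DRM2, on chromosome 3 (LOC_Os03g02010), differed less than the maintenance genes. It stood at 43.6 FPKM in XD1B (42.0 to 45.2) and 26.6 in lf2 (25.3 to 27.9), a ratio of 0.610 (0.574 to 0.648) and a log2 ratio of -0.69. The level intervals do not overlap, but the share of all measured genes for which that holds was not computed, and 23.2% had a lower log2 ratio. Within the same library, where the scaling between libraries cancels, the level of MET1b over that of DRM2 was 1.12 in XD1B and 0.843 in lf2. That proportion changed by a factor of 0.751 (0.681 to 0.827), and that of CMT3a over DRM2 by 0.695 (0.638 to 0.758).

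ROS1a, on chromosome 1 (LOC_Os01g11900), had the smallest difference of the measured genes. It stood at 32.2 FPKM in XD1B (31.1 to 33.4) and 24.8 in lf2 (23.7 to 25.8), a ratio of 0.769 (0.727 to 0.812) from at least 3037 and 2195 fragments. The level was lower in lf2 beyond counting error, yet its log2 ratio of -0.37 lay next to the median of all measured genes, and 45.8% of them had a lower one. When lf2 values were rescaled to a median ratio of 1, the log2 ratio of ROS1a was 0.02.

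**Figure D2:**
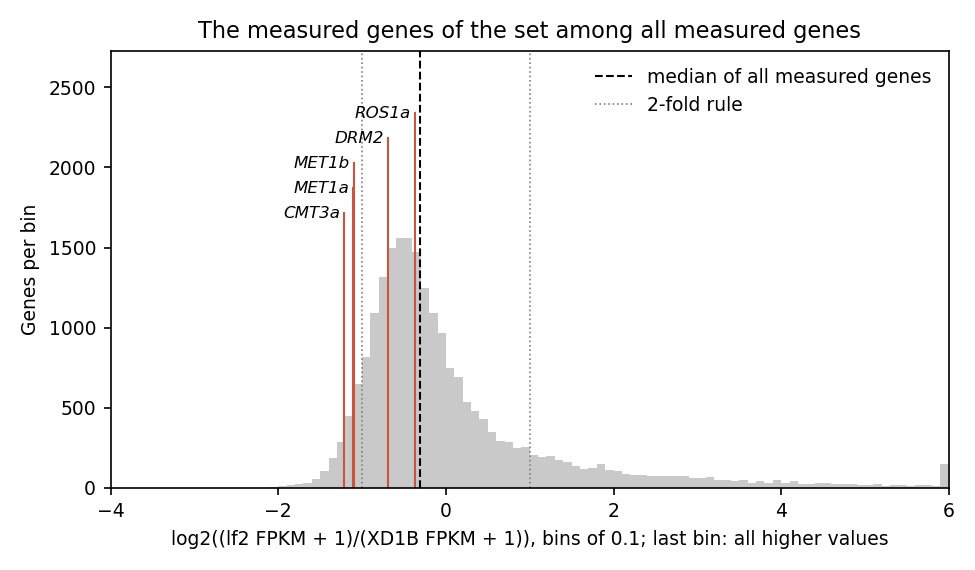
Number of measured genes per bin of log2 ratio (lf2 over XD1B, pseudocount of 1), with the 5 measured genes of the set as red lines. The dashed line is the median of all measured genes at -0.31 and the dotted lines the 2-fold rule. ROS1a lies next to the median, DRM2 further left and MET1a, MET1b and CMT3a beyond the dotted line at -1.

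The order of the genes by level differed between the libraries. In XD1B it was CMT3a, MET1b, DRM2, ROS1a, MET1a and CMT2, and no neighbouring level intervals overlapped. In lf2 it was CMT3a, DRM2, ROS1a, MET1b, MET1a and CMT2. There the interval of ROS1a overlapped those of both DRM2 and MET1b, so these neighbours cannot be ranked firmly. The summed level of the 6 genes was 213 FPKM in XD1B and 111 in lf2. ROS1a made up 15.1% of it in XD1B and 22.3% in lf2, while CMT3a made up 38.0% and 30.9%, MET1b 23.0% and 20.2%, and DRM2 20.5% and 23.9%.

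Each of the 4 measured methyltransferase transcripts was lower relative to ROS1a in lf2. This direction follows from ROS1a having the highest ratio of the 5 measured genes. Of all measured genes, 45.8% had a lower log2 ratio than ROS1a. The level of CMT3a over that of ROS1a was 2.51 in XD1B and 1.39 in lf2, a change of 0.552 (0.508 to 0.599). For MET1b the proportion was 1.52 and 0.905, a change of 0.595 (0.542 to 0.654). The value of MET1b thus stood above that of ROS1a in XD1B and below it in lf2, where their level intervals overlap. MET1a had the widest interval, with proportions of 0.224 and 0.114 and a change of 0.509 (0.401 to 0.642). DRM2 over ROS1a was 1.35 and 1.07, a change of 0.793 (0.730 to 0.861). All 4 intervals lie below 1, and that of DRM2 lies above those of the other three. CMT2 over ROS1a changed by 1.38 (0.629 to 3.04), which includes 1.

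**Figure D3:**
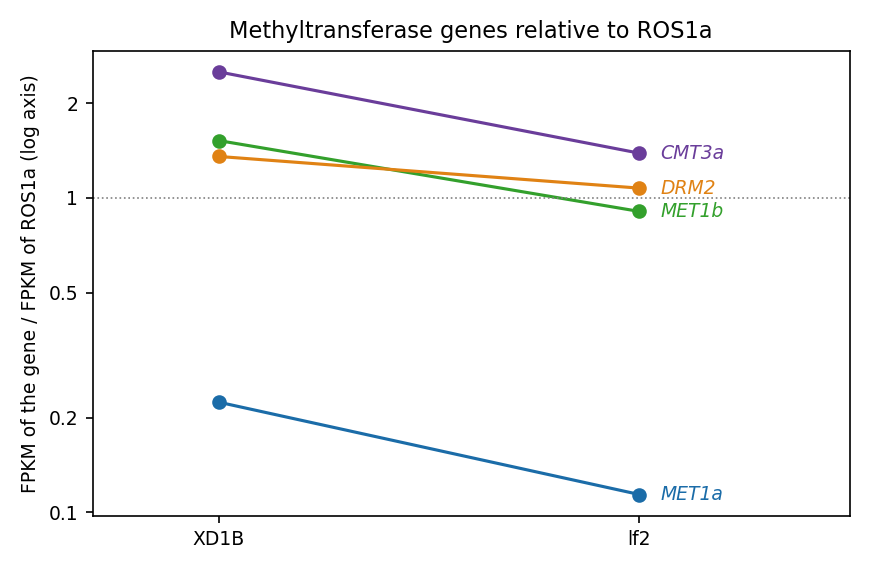
Level of each measured methyltransferase gene divided by that of ROS1a in the same library (log axis), for XD1B and lf2. The lines of CMT3a, MET1b and MET1a slope down more steeply than that of DRM2. MET1b goes from 1.52 to 0.905, but its level interval in lf2 overlaps that of ROS1a.

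Other genes of DNA methylation were taken from lists of the same families, the RNA-directed pathway, DDM1 chromatin remodellers and histone H3K9 methylation. They were restricted to 7 genes whose name, or for CMT3b another name of the gene, stands at the matching place of the RefSeq table. All 7 were measured, 6 were lower in lf2 and 0 passed the 2-fold rule in either direction, with a median log2 ratio of -0.51. That median was -0.14 with lf2 rescaled to a median ratio of 1 and -0.01 with the reference genes at 1. The median of all measured genes was then 0.04 and 0.16. Of all measured genes 65.2% were lower in lf2, and 39.7% with the reference genes at 1. As reported, 8.23% of them passed the 2-fold rule downward and 15.3% upward, so 0 among only 7 genes does not set this list apart. The second CMT3-type gene, CMT3b (LOC_Os03g12570, OsMET2b in RefSeq), stood at 2.81 FPKM in XD1B and 0.929 in lf2, giving a ratio of 0.330 (0.273 to 0.398). Its log2 ratio of -0.98 missed the rule because the pseudocount of 1 weighs on a gene this low. DRM3, a catalytically degenerate relative of DRM2, stood at 29.8 FPKM in XD1B and 22.4 in lf2, giving a ratio of 0.751 (0.707 to 0.798). ROS1c, another glycosylase gene, had 18.7 FPKM in XD1B and 12.8 in lf2, giving a ratio of 0.686 (0.648 to 0.727). Thus CMT3b had a ratio as low as the maintenance genes, and DRM3 and ROS1c had ratios between those of DRM2 and ROS1a.

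The RNA-directed pathway supplies the guide RNAs for DRM2. Its small RNA-binding Argonaute genes AGO4a and AGO4b were abundant, at 185 and 127 FPKM in XD1B and 108 and 71.3 in lf2. Their ratios were 0.581 (0.567 to 0.596) and 0.562 (0.545 to 0.578), and both intervals overlap that of DRM2. RDR2, the RNA polymerase that makes the double-stranded precursor, had 14.6 FPKM in XD1B and 10.2 in lf2, giving a ratio of 0.699 (0.647 to 0.755). The histone demethylase gene JMJ706 had 11.4 FPKM in XD1B and 12.1 in lf2, giving a ratio of 1.06 (0.973 to 1.15) that includes equal levels. With all 25 genes of these lists found in the table, checked by name or not, 19 were measured and 18 of them were lower in lf2. By the 2-fold rule 1 was lower, a gene of the DDM1 remodeller list, and 0 were higher. Among all measured genes 65.2% were lower, 8.23% passed the rule downward and 15.3% upward.

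Genes for the methyl donor were mixed. S-adenosylmethionine synthetases make the methyl group carrier that all methyltransferases use. SAMS2 passed the 2-fold rule upward, with 171 FPKM in XD1B and 359 in lf2 and a ratio of 2.09 (2.04 to 2.15). SAMS1 had 270 FPKM in XD1B and 296 in lf2 and a ratio of 1.10 (1.07 to 1.12). Over all 4 listed methyl donor genes, checked by name or not and not all synthetases, 1 passed the 2-fold rule upward, 0 downward, and 2 were lower in lf2. Of all measured genes 15.3% passed the rule upward, 8.23% downward, and 65.2% were lower in lf2. So few genes do not set this list apart from them.

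DNA replication genes were lower in lf2 by a factor near that of the maintenance methyltransferases. All 7 passed the 2-fold rule downward, against 8.23% of all measured genes, with a median log2 ratio of -1.33. Their ratios lay between 0.355 and 0.457, and their summed level was 614 FPKM in XD1B and 240 in lf2. With lf2 rescaled to a median ratio of 1 their median was -0.95, and with the reference genes at 1 it was -0.82, both short of the rule. The median of all measured genes was then 0.04 and 0.16, and the rule called 1.76% and 1.08% of them lower. Among helicase subunits the ratio was 0.386 for MCM4, 0.364 for MCM5 and 0.355 for MCM6. PCNA, the replication sliding clamp, had a ratio of 0.382 (0.367 to 0.397). Relative to PCNA within a library, MET1a changed by 1.02 (0.810 to 1.29), CMT3a by 1.11 (1.03 to 1.19) and MET1b by 1.20 (1.10 to 1.30). DRM2 changed by 1.60 (1.49 to 1.72) and ROS1a by 2.01 (1.88 to 2.15). Against PCNA the interval of MET1a includes 1, and the intervals of CMT3a and MET1b lie above 1 but below those of DRM2 and ROS1a. The part of the replication genes in the differences above was not tested.

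**Figure D4:**
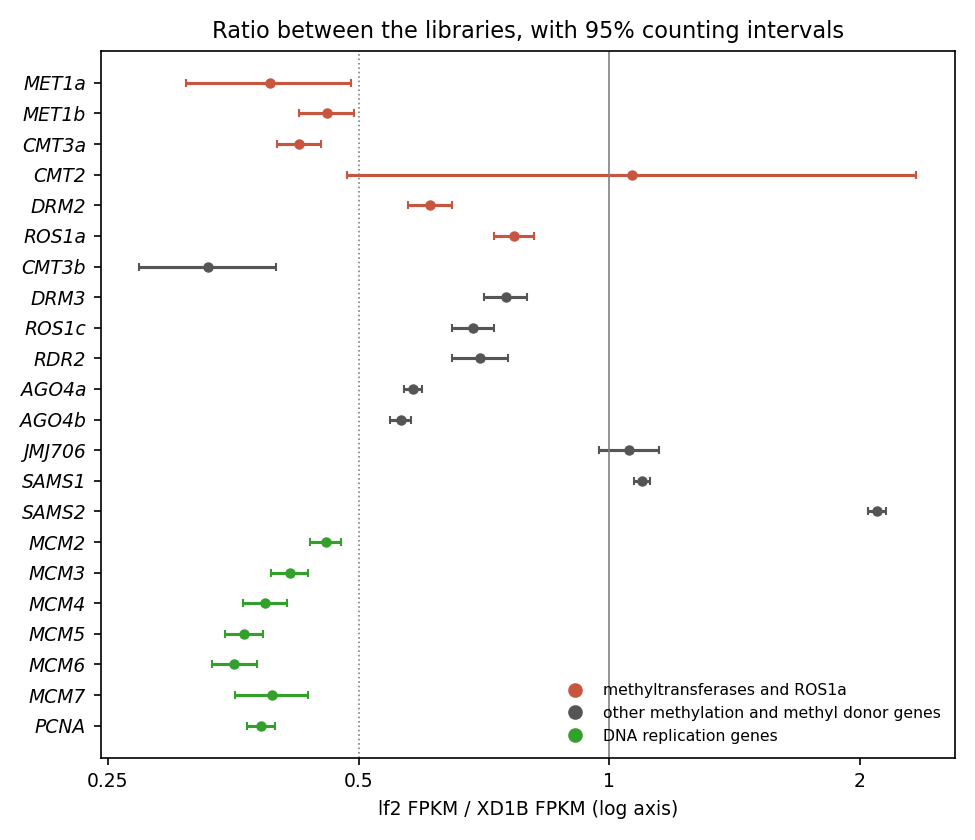
Ratio of lf2 to XD1B FPKM (log axis) for the 6 genes of the set (red), 9 other methylation and methyl donor genes (grey) and 7 DNA replication genes (green). Bars are exact Clopper-Pearson 95% intervals for counting error. MET1a, MET1b, CMT3a and CMT3b lie left of 0.5 with all the replication genes, and DRM2 and ROS1a lie between 0.5 and 1.

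The size of each difference between the libraries depends on how they are scaled to each other. Rescaling lf2 to a median ratio of 1, taken over genes with at least 5 FPKM in each library, multiplied its values by 1.32 and moved the median of all measured genes from -0.31 to 0.04. After it, the 2-fold rule called 1.76% of measured genes lower and 19.5% higher, and 0 of the 5 measured genes passed the rule. The log2 ratios of CMT3a, MET1a and MET1b were then -0.83, -0.80 and -0.71, and that of DRM2 was -0.31. With 5 reference genes set to a median ratio of 1, the rule called 1.08% of measured genes lower and 21.2% higher, and again 0 of the 5. CMT3a, MET1a and MET1b then stood at -0.70, -0.70 and -0.58, DRM2 at -0.18 and ROS1a at 0.14. The 3 maintenance genes and DRM2 were lower in lf2 under every scaling run, ROS1a changed sign with both of these rescalings, and the proportions between genes of the same library do not depend on the scaling. With a pseudocount of 5 in place of 1, the rule called 2.93% of measured genes lower and 9.86% higher, and of the 5 genes only CMT3a passed it, downward.

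**Figure D5:**
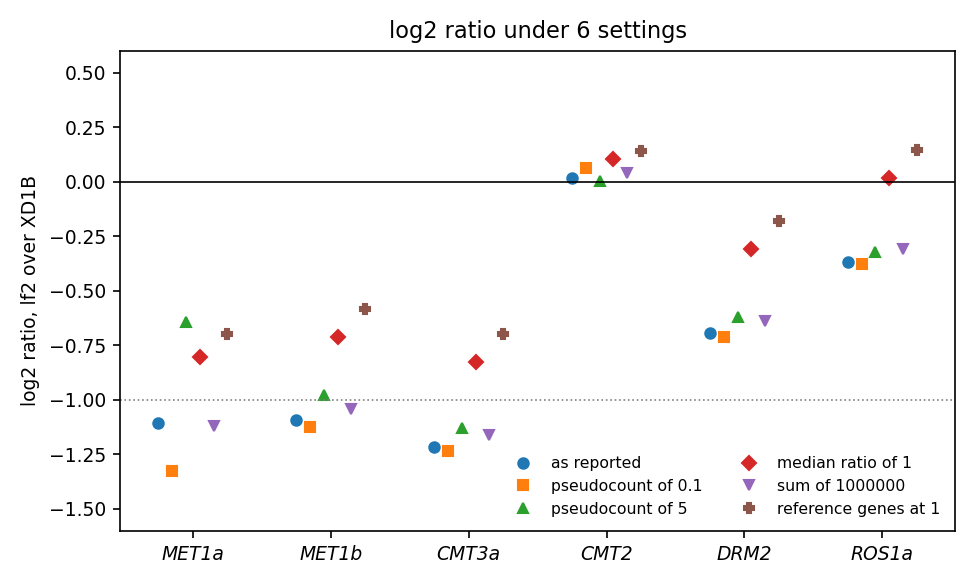
log2 ratio of lf2 over XD1B for each gene under 6 settings of pseudocount and scaling. The dotted line marks the 2-fold rule at -1. MET1a, MET1b, CMT3a and DRM2 stay below 0 in all 6, ROS1a lies above 0 under both rescalings by ratio, at 0.02 and 0.14, and CMT2 stays near 0.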

How the data were processed

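The authors deposited 1 table of FPKM values, named so per the file headers, with 1 column per library. No source used here gives the aligner, counting tool, genome build, annotation, filters or strand setting. The 6 genes and all lists were chosen with earlier results of these data known. Genes other than the 6 were named only where the RefSeq table of assembly ASM3414082v1 holds the name, or another name of the gene (OsMET2b for CMT3b, SAM1 for SAMS1), on the same chromosome within 0.06 of its length. Of 68 list genes 40 met this, including 4 of the 6, CMT2 and ROS1a having no entry by name. The naming rule took list genes past the 2-fold rule (the 4 with the largest log2 ratio if over 5) and relatives of the 6; marker lists are given by their ranges instead. JMJ706, RDR2, AGO4a, AGO4b, SAMS1, OSH1, MADS14, MADS15, TDR, EAT1 and C6 were named outside it, after their values were seen.

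FPKM values are whole fragment numbers over a whole length and the library total. The totals came from the 150 lowest values per library. Within 0.0002 fragments plus 3e-07 of their number, 100% of 32350 genes above 0 gave whole fragments, against 34.8% of 2000 genes with a wrong total, so a single match is weak evidence for one gene. Fragments per gene are lower bounds, since a factor shared by both libraries is hidden, and the intervals are therefore at least as wide as the true ones. The recovery was tested on simulated data. Intervals were exact Poisson for levels, exact Clopper-Pearson for ratios and exact conditional for proportions between genes. PCR copies are not independent molecules. Alternatives were pseudocounts of 0.1 and 5, rescaling to a median ratio of 1, to a sum of 1000000 and to 5 reference genes, and other filters. Scripts used numpy 2.4.6, scipy 1.17.1, pandas 2.3.3, numba 0.67.0 and matplotlib 3.10.9 under Python 3.11.15.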

Additional observations from a re-analysis of the deposited data

How the results depend on the processing

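No paired analysis was possible because each genotype has 1 library, and no replicate could be left out. With a pseudocount of 5 the log2 ratios were -0.64 for MET1a and -0.98 for MET1b, 1 of the 5 measured genes passed the 2-fold rule, and their median was -0.64; the pseudocount pulls low genes toward 0 by construction. Rescaling to a median ratio of 1 gave -0.71 for MET1b, -0.83 for CMT3a, -0.31 for DRM2 and 0.016 for ROS1a, 0 genes past the rule and a median of -0.95 for DNA replication genes. Setting 5 reference genes to 1 gave -0.70 for MET1a, -0.58 for MET1b, -0.70 for CMT3a, -0.18 for DRM2 and 0.14 for ROS1a, 0 genes past the rule, a median of -0.58 over the 5 measured genes and -0.82 for replication genes. Both rescalings multiply every lf2 value. The pseudocount of 0.1, the sum of 1000000 and the filters moved no value of these genes or lists beyond its margin. Nor did no pseudocount and lists with unchecked names, both added after the data had been seen. For a gene the margin came from its counting interval. For a list median it came from the range of its genes' log2 ratios, so such a median could shift widely within it. Counts past the rule had no interval and were the same. The share of all measured genes at least 2-fold lower, 8.23% as reported, was 13.4% with a pseudocount of 0.1 and 14.6% with none, the latter over genes above 0 in both libraries. Depth limits CMT2 most, at no fewer than 15 recovered fragments a library.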
